A study of Mus musculus with 13 samples.

Results

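Egln3, Rasl10a, Fam163b and Rps15a were the 4 genes examined here, out of 2832 genes that had a symbol of their own in the deposited table of selected probe sets. They were chosen because their array intensities looked highest in the striatum of mice heterozygous for a knockout of Ptpn5, the gene of the phosphatase STEP. All 6 probe sets that the table gives under these symbols were used, 2 for Egln3, 1 for Rasl10a, 2 for Fam163b and 1 for Rps15a. The choice rested on the heterozygous arrays set against the other arrays, so those differences are described below with their standard errors and are not tested.

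The study profiled total RNA from the striatum of naive male C57Bl/6J mice on Affymetrix arrays, 1 array per sample. There were 5 STEP +/- samples (HET), 4 STEP -/- samples (HOM) and 4 wild-type littermate samples (WT), 13 arrays in all. The sources used here do not state age, the deleted stretch of Ptpn5, the array type or whether animals were pooled, although a note in the deposited table speaks of mice one by one. Intensities of 45101 probe sets were deposited on a linear scale without a log. A probe set is a group of short oligonucleotides that read the same transcript, and its intensity is set by its own chemistry as well as by the RNA, so levels are compared between arrays and not between probe sets.

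Genotypes were taken from the sample records. In the separate table of selected probe sets, the columns headed WT 1 to 4 held the values of the records HOM 1 to 4, and the columns headed HOM held those of the WT records, with 100% of 4423 probe sets equal to within rounding, whereas the HET columns matched their own records. Ptpn5 itself went with the sample records. Its probe set 1425130_a_at averaged 1028 ± 231 in HET, 485.7 ± 105 in HOM and 1649 ± 217 in WT (SD, n = 5, 4 and 4), and 1423544_at averaged 2503 ± 496 in HET, 1262 ± 232 in HOM and 3527 ± 276 in WT. In HOM minus WT these probe sets were lower by the limma fit over all probe sets (log2 difference -1.75 ± 0.17 SE, adjusted p = 4.47e-06, and -1.49 ± 0.15, adjusted p = 5.24e-06). HET was above HOM (1.05 ± 0.16, adjusted p = 0.0151, and 0.97 ± 0.14, adjusted p = 0.0123), and HET minus WT was -0.69 ± 0.16 and -0.51 ± 0.14 (adjusted p = 0.287 for both). Mean Ptpn5 was thus intermediate in HET, the genotype in which the 4 genes examined had their highest mean.

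As background, Egln3 encodes PHD3, an oxygen-dependent prolyl hydroxylase that marks the alpha subunits of hypoxia-inducible factor (HIF) for destruction, and its own gene is a classical HIF target. Rasl10a encodes a Ras-like small GTPase, a switch protein that binds GTP; its human counterpart has been described mainly in neural tissue. Fam163b encodes a small membrane protein of a family whose function is little described. Rps15a encodes a protein of the small ribosomal subunit, present in every cell that makes protein. STEP, which is abundant in striatal neurons, removes phosphate from tyrosines of the kinases ERK and Fyn and of glutamate receptor subunits. The striatum lies directly under the cerebral cortex, whose excitatory neurons carry marker genes that striatal projection neurons largely lack.

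The start regions of the 4 genes are shown because the genes were grouped by a shared pattern across arrays, so that their promoters can be compared. Each sequence runs 5′ to 3′ in the direction of the gene, from 250 bases before the start to 50 bases after it, in the RefSeq annotation of mouse build GRCm38.p6, and all 4 genes were found there. Capitals mark matches on either strand to ACGTG or GCGTG, cores of the HIF-binding element, to TGACG, a partial cAMP response element, or to CGGAAG, a core bound by ETS factors. Egln3 lies at chr12:54203825-54204124 on the minus strand, Rasl10a at chr11:5057878-5058177 on the plus strand, Fam163b at chr2:27142428-27142727 on the minus strand, and Rps15a at chr7:118116098-118116397 on the minus strand.
Egln3: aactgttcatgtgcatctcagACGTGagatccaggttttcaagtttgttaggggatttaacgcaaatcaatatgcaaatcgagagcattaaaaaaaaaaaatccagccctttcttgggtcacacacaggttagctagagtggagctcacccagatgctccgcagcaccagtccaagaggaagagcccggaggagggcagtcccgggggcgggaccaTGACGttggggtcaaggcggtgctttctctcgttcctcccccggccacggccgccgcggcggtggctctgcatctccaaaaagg
Rasl10a: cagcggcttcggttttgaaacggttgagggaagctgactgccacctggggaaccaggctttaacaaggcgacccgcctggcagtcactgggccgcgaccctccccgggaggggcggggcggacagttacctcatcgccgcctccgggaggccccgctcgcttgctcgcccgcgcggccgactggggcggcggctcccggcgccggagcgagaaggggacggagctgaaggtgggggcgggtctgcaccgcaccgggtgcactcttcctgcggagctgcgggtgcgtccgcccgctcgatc
Fam163b: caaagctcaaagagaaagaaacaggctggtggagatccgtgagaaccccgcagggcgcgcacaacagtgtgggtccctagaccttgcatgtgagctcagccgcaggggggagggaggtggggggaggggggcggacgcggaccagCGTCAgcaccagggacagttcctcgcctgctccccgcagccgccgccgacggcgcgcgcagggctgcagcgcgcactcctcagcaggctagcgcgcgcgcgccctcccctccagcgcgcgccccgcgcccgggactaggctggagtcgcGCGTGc
Rps15a: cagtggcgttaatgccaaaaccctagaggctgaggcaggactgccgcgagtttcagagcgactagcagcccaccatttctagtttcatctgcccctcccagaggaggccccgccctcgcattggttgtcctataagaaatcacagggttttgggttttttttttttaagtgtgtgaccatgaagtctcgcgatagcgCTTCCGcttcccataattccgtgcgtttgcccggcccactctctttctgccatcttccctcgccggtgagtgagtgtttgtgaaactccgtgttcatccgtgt

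The windows differed in base composition and shared no searched motif across all 4 genes. G and C made up 54.7% of the Egln3 window, 72.3% of the Rasl10a window, 72.0% of the Fam163b window and 53.0% of the Rps15a window, against a median of 52.7% over 32851 promoters of the same length. The Egln3 window held ACGTG with its first base at -229 from the start and TGACG at -34. The Fam163b window held GCGTG at +45 and TGACG on the other strand at -105, and the Rps15a window held CGGAAG on the other strand at -53. Rasl10a held none of the 4 motifs. Such short matches are common: ACGTG occurred in 19.6% of the promoters, GCGTG in 32.4%, TGACG in 20.8% and CGGAAG in 16.9%, and no 2 of these motifs overlapped in the printed windows.

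Egln3 had the largest HET minus WT difference of the 4 genes on the log2 scale, in 1 of its probe sets, while Fam163b had the largest HET minus HOM difference. The Egln3 probe set 1418648_at read 124, 109, 128, 71.5 and 192 in HET 1 to HET 5, 66.6, 71.9, 48.1 and 87.6 in HOM 1 to HOM 4, and 34.2, 57.3, 40.5 and 68.9 in WT 1 to WT 4. Every HET array was above every WT array, but HET 4 lay inside the HOM range, and HET 5 was well above the rest. The means were 125 ± 43.5 in HET, 68.5 ± 16.3 in HOM and 50.2 ± 15.8 in WT (SD). On the scale of log2(intensity + 16) the difference was 1.06 ± 0.19 (SE) for HET minus WT and 0.70 ± 0.19 for HET minus HOM, which correspond to 2.09-fold and 1.63-fold. The offset of 16 shrinks the ratio of dim probe sets such as this one, which sat at the 31.1st percentile of brightness.

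The second Egln3 probe set separated the genotypes more cleanly. Probe set 1418649_at read 123, 107, 108, 89.9 and 168 in HET 1 to HET 5, 65.4, 81.2, 74.7 and 81.3 in HOM 1 to HOM 4, and 46.7, 83.1, 66.8 and 68.7 in WT 1 to WT 4. Each HET array was above each of the 8 other arrays, and HOM and WT were intermixed. The means were 119 ± 29.9 in HET, 75.7 ± 7.51 in HOM and 66.3 ± 15.0 in WT (SD), with differences of 0.71 ± 0.15 for HET minus WT and 0.54 ± 0.15 for HET minus HOM. After each array's median log2 value was subtracted, HET was still above all other arrays. It was the only one of the 6 probe sets with that separation, which 0.124% of all 45101 probe sets showed as deposited and 0.164% after median subtraction; because the genes were picked for high HET values, nothing is read from this. The other Egln3 probe set lost its separation from WT after the subtraction, HET 4 then lying just below WT 4.

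Rasl10a showed the same order of genotypes at a higher brightness. Its probe set 1427975_at read 971, 645, 662, 523 and 1055 in HET 1 to HET 5, 609, 493, 442 and 477 in HOM 1 to HOM 4, and 319, 434, 404 and 425 in WT 1 to WT 4. HET 1 and HET 5 were far above the other HET arrays, every HET array was above every WT array, and HOM 1 was above HET 4. The HOM arrays were all above the WT arrays, narrowly so, with 442 in HOM 3 against 433.6 in WT 2; this held for 1 of the 6 probe sets as deposited, against 1.3% of all, and for none with medians subtracted, against 1.01%. The means were 771 ± 229 in HET, 505.3 ± 72.4 in HOM and 395 ± 52.5 in WT (SD). The differences were 0.90 ± 0.17 for HET minus WT and 0.56 ± 0.17 for HET minus HOM, or 1.86-fold and 1.47-fold. With array medians subtracted, HET stayed separate from WT (0.78 ± 0.20) while HOM and WT overlapped. HOM 1, at 1.97, then lay above HET 2, HET 3 and HET 4, at 1.85, 1.66 and 1.61.

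Fam163b differed between its probe sets. The brighter one, 1455753_at, read 677, 603, 874, 416 and 665 in HET 1 to HET 5, 352, 344, 310.2 and 438 in HOM 1 to HOM 4, and 322, 416, 257 and 404 in WT 1 to WT 4. HET 3 was the highest, and 4 HET arrays exceeded all others, but HET 4 was below HOM 4 and just below WT 2. HOM and WT had nearly the same level, 361 ± 54.5 in HOM and 349.7 ± 74.7 in WT, against 647 ± 164 in HET (SD). The differences were 0.84 ± 0.17 for HET minus WT and 0.79 ± 0.17 for HET minus HOM, or 1.80-fold and 1.73-fold. Median subtraction left 0.73 ± 0.16 and 0.76 ± 0.16 and separated HET from HOM but not from WT.

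The dimmer Fam163b probe set, 1457437_at, read 125, 110.0, 133, 107 and 144 in HET 1 to HET 5, 97.5, 115, 91.9 and 122 in HOM 1 to HOM 4, and 101, 109.6, 106 and 93.8 in WT 1 to WT 4. All 3 genotypes overlapped, with means of 124 ± 15.5 in HET, 107 ± 14.2 in HOM and 103 ± 6.81 in WT (SD). The differences of 0.23 ± 0.12 for HET minus WT and 0.19 ± 0.12 for HET minus HOM were well below those of the brighter probe set. The 2 probe sets of Fam163b also followed each other only loosely over the 13 arrays (Pearson r = 0.58, Spearman rho = 0.31), whereas the 2 of Egln3 gave r = 0.92 and rho = 0.84.

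Rps15a departed from the pattern by which the genes were grouped. Its probe set 1457726_at read 220.0, 246, 267, 212 and 281 in HET 1 to HET 5, 229.9, 225, 199.6 and 160.5 in HOM 1 to HOM 4, and 181, 119, 126 and 153 in WT 1 to WT 4. Every HET array was above every WT array, whereas HOM 1 and HOM 2 lay among the HET arrays and HOM 4 among the WT arrays. The means were 245 ± 29.6 in HET, 204 ± 31.7 in HOM and 145 ± 28.3 in WT (SD). This probe set sat at the 53.5th percentile of brightness, and whether it reads the main Rps15a transcript was not tested. HET minus WT was 0.71 ± 0.14, while HET minus HOM was 0.25 ± 0.14 and smaller than HOM minus WT, so that HOM stood nearer to HET than to WT. Rps15a lies on chromosome 7, as Ptpn5 does, and the other genes lie on chromosomes 12, 11 and 2. The distance between Rps15a and Ptpn5 was not examined, and the part of the shared chromosome in the Rps15a values was not tested.

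**Figure D1:**
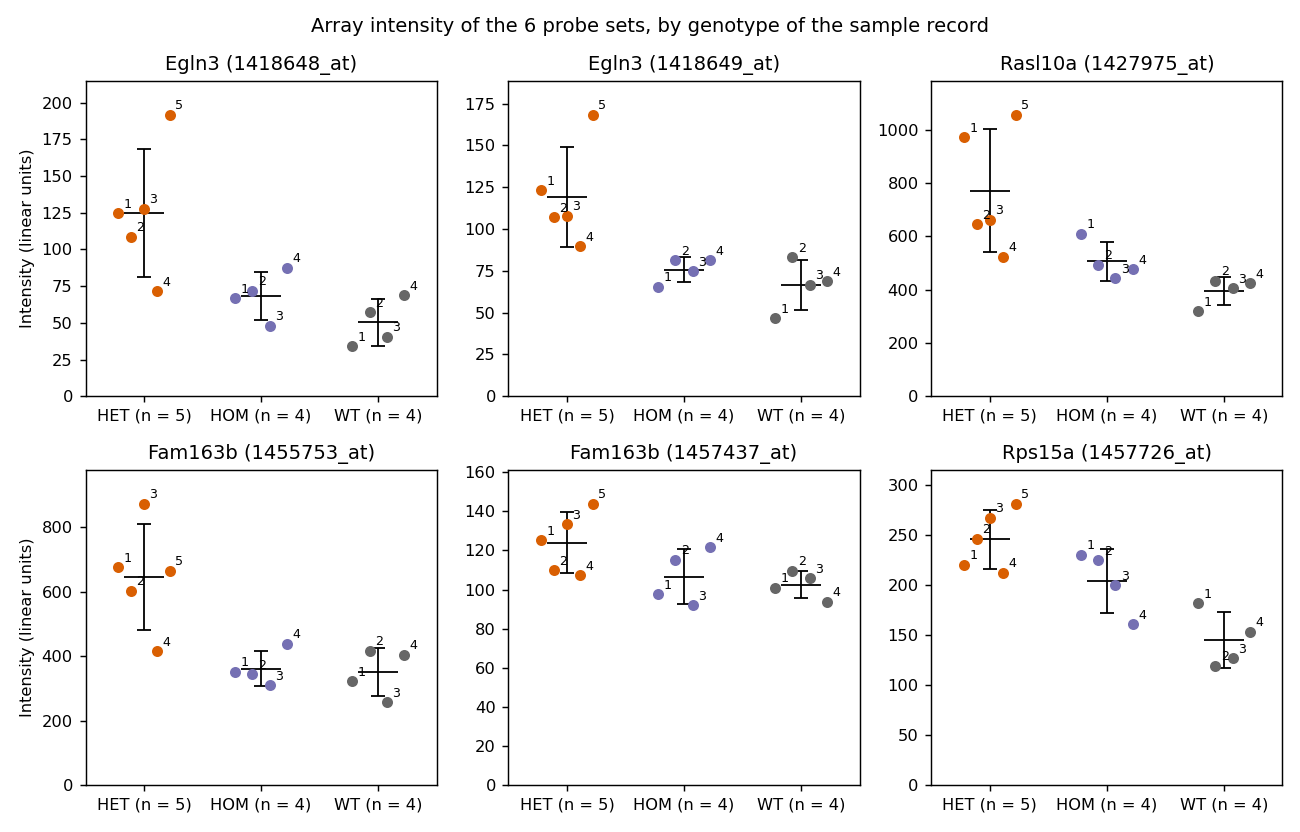
Intensity (linear units) of the 6 probe sets in each array, by genotype in the order HET, HOM and WT; points are arrays with their replicate number, and bars give the mean and SD. HET 4 is the lowest HET array in every panel, and Egln3 1418649_at is the panel in which all 5 HET points lie above all others.

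Within HET the arrays kept a similar order. HET 4 was the lowest HET array for all 6 probe sets, and HET 5 was the highest for 5 of them, the exception being Fam163b 1455753_at. In 5 of the 6 probe sets HET 1, HET 3 and HET 5 were the 3 highest of all arrays, and in Rps15a HET 2 took the place of HET 1. The SD of the intensities was largest in HET for 5 probe sets, and for Rps15a it was 29.6 in HET, 31.7 in HOM and 28.3 in WT. Every HET array exceeded every WT array in 4 of the 6 probe sets as deposited (6.54% of all probe sets) and in 3 with array medians subtracted (1.55%). Every HET array exceeded every HOM array in 1 probe set as deposited (0.386% of all) and in 2 with medians subtracted (0.876%). These shares are given beside the counts without a reading, since the genes were picked for this contrast.

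HOM minus WT was not itself the contrast that chose Egln3, Rasl10a or Fam163b, and it was tested. The choice used the same HOM and WT arrays, so this comparison is not independent of it. The authors' deposited table had listed Rps15a through this comparison too, so its p is given as a description. None of the 6 probe sets passed an adjusted p of 0.05, against 4 of 45101 over the array (0.00887%; 12 without HOM 4). Rps15a differed by 0.45 ± 0.14 (unadjusted p = 0.00436, adjusted p = 0.909 by limma), and was 1 of the 3.02% of probe sets under an unadjusted p of 0.05 in either direction. Rasl10a differed by 0.34 ± 0.17 and Egln3 by 0.36 ± 0.20 and 0.17 ± 0.16 (adjusted p = 0.909 for each). Fam163b differed by 0.06 ± 0.18 and 0.04 ± 0.12 (adjusted p = 0.944 and 0.940). Over all probe sets the median of HOM minus WT was 0.09, and with array medians subtracted Rps15a kept 0.36 ± 0.15, Rasl10a 0.25 ± 0.21 and Egln3 0.27 ± 0.23 and 0.08 ± 0.16, while Fam163b stood at -0.03 ± 0.17 and -0.05 ± 0.10. Differences in these genes between HOM and WT were therefore not shown, and the design of 4 against 4 arrays limits the precision to the standard errors given.

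The authors' deposited table listed all 6 probe sets through its comparison of heterozygous with wild-type arrays. In that table the fold change was 2.46 for Egln3 1418648_at, 1.79 for Egln3 1418649_at, 1.90 for Rasl10a, 1.83 for Fam163b 1455753_at, 1.203 for Fam163b 1457437_at and 1.71 for Rps15a. The adjusted p-values in the authors' deposited table ran between 0.226 for Egln3 1418648_at and 0.435 for Fam163b 1457437_at. Rps15a was the only member that the authors' deposited table also listed for homozygous against wild-type arrays, at 1.41-fold with an adjusted p of 0.890. The sign of that Rps15a fold goes with the genotypes of the sample records, by which HOM is above WT, and is opposite to the headings of the columns beside it.

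Over all 45101 probe sets, 10.8% were higher in HET minus WT at an unadjusted p under 0.05, and 1 passed the adjusted threshold (0.00222%), or 213 without HET 4. The median difference of all probe sets was 0.12 for HET minus WT and 0.03 for HET minus HOM, so part of each HET minus WT value above was shared by the array as a whole. With array medians subtracted, HET minus WT was 0.95 and 0.59 for Egln3, 0.78 for Rasl10a, 0.73 and 0.12 for Fam163b and 0.59 for Rps15a. HET minus HOM was then 0.68 and 0.52 for Egln3, 0.53 for Rasl10a, 0.76 and 0.17 for Fam163b and 0.23 for Rps15a, close to the values as deposited.

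The brightness of the arrays differed within and between genotypes. The median intensity of all probe sets was 160 to 198 in HET, 143 to 201 in HOM and 154 to 168 in WT. The mean of 9 hybridization control probe sets, which read RNA spiked in during the assay, was 3408 to 4548 in HET, 2981 to 3861 in HOM and 3251 to 3649 in WT, and HET 1, HET 3 and HET 5 had the 3 highest values. Egln3, Rasl10a and Fam163b were highest in the same 3 arrays, whereas Rps15a had HET 2 in place of HET 1. The part of array brightness in the members' differences was not tested. With the control mean subtracted from each array, a scaling chosen after seeing the data that moved the median of all probe sets to -0.12 in HET minus WT, Egln3 differed by 0.83 ± 0.18 and 0.47 ± 0.15, Rasl10a by 0.66 ± 0.15, Fam163b by 0.61 ± 0.14 and -0.0015 ± 0.13, and Rps15a by 0.47 ± 0.15. In HET minus HOM, where this scaling moved the median to -0.18, Egln3 kept 0.49 ± 0.18 and 0.33 ± 0.15, Rasl10a 0.35 ± 0.15 and Fam163b 1455753_at 0.58 ± 0.14, whereas Rps15a came to 0.05 ± 0.15 and Fam163b 1457437_at to -0.02 ± 0.13.

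**Figure D2:**
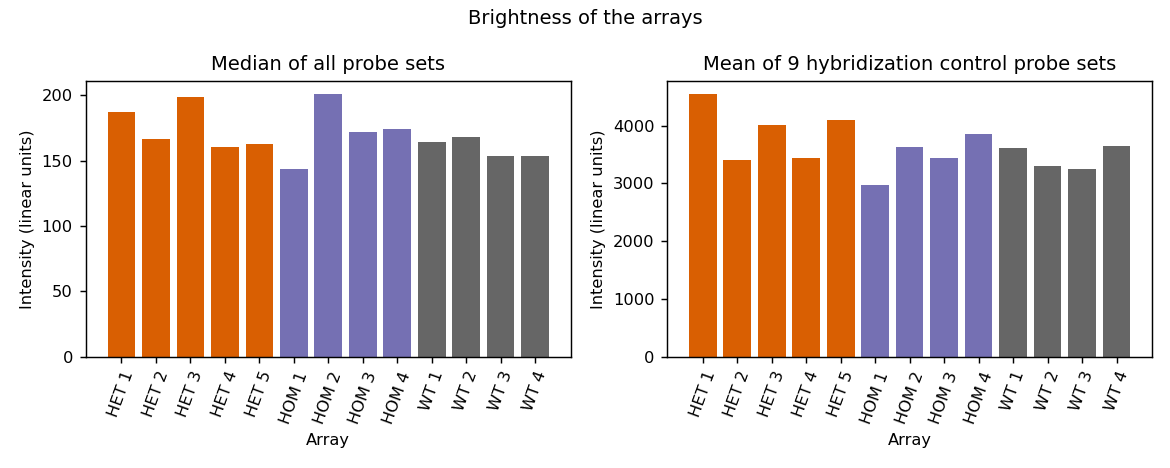
Median intensity of all probe sets (left) and mean intensity of the 9 hybridization controls (right) for each array in linear units, with HET bars first, then HOM and WT. HET 1, HET 3 and HET 5 have the tallest control bars, up to 4548.

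Leaving out HET 1, HET 3 and HET 5, a check also added after seeing the data, kept 2 HET arrays. Rps15a then had 0.62 ± 0.18 for HET minus WT and Egln3 0.69 ± 0.21 and 0.49 ± 0.17. Rasl10a had 0.55 ± 0.17 and Fam163b 0.52 ± 0.19 and 0.07 ± 0.16. For HET minus HOM the values were smaller, 0.33 ± 0.21 and 0.32 ± 0.17 for Egln3, 0.21 ± 0.17 for Rasl10a, 0.47 ± 0.19 and 0.03 ± 0.16 for Fam163b and 0.17 ± 0.18 for Rps15a. The HET excess over HOM of Rasl10a was thus well under its value with all arrays, while Fam163b 1455753_at kept the largest one.

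**Figure D3:**
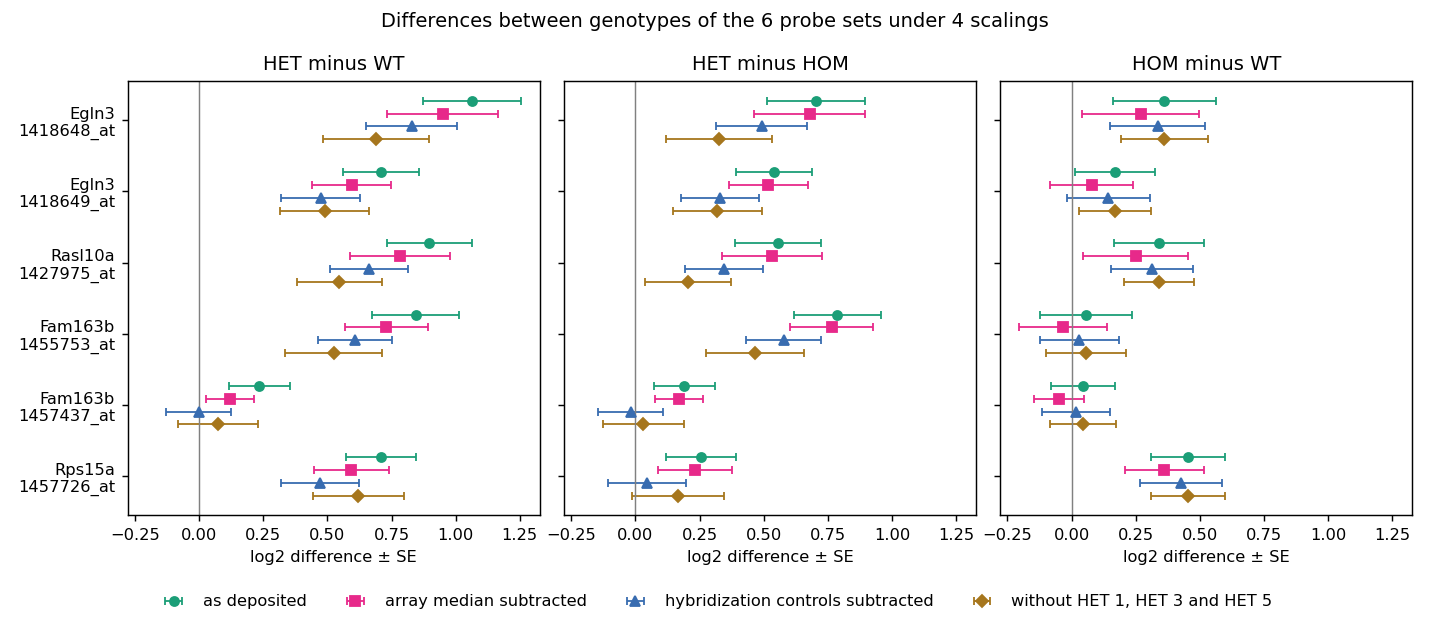
Log2 differences with SE of the 6 probe sets for HET minus WT, HET minus HOM and HOM minus WT, as deposited, with array medians subtracted, with hybridization controls subtracted and without HET 1, HET 3 and HET 5. HET minus WT is above 0 for 5 probe sets under all 4 treatments, and Fam163b 1457437_at comes to -0.0015 with hybridization controls subtracted.

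The members did not form 1 block across the arrays. With array medians subtracted, Egln3 1418648_at followed Rasl10a (r = 0.90, rho = 0.88, n = 13 arrays) and Fam163b 1455753_at (r = 0.88, rho = 0.85). Within genotypes, after each group's mean was removed, these values were 0.77 and 0.75, and without the 2 arrays farthest from the Egln3 median they were 0.76 and 0.92. Rasl10a and Fam163b 1455753_at gave r = 0.74 and rho = 0.76, but 0.44 within genotypes. Rps15a followed the other probe sets with r between 0.37 and 0.68, and between 0.05 and 0.34 within genotypes. These correlations are descriptions over arrays that share their hybridization and brightness, and the pooled values carry the HET excess for which the genes were chosen.

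Genes whose profiles were most like each member were sought among 2617 brighter listed probe sets, a set that was itself selected mostly for HET against WT. For Egln3 1418649_at these were Arpp21, a cAMP-regulated phosphoprotein of striatal and cortical neurons (r = 0.97, rho = 0.93), Mef2c, a transcription factor of neurons and muscle (r = 0.95, rho = 0.89), and Tcf4, a basic helix-loop-helix transcription factor (r = 0.95, rho = 0.92). For Rasl10a they were Extl1, a glycosyltransferase of heparan sulfate synthesis (r = 0.97, rho = 0.97), Atp2b4, a plasma membrane calcium pump (r = 0.96, rho = 0.94), and Nov, a secreted matrix protein now named Ccn3 (r = 0.95, rho = 0.91). For Fam163b 1455753_at they were Sacm1l, a phosphoinositide phosphatase (r = 0.93, rho = 0.90), Fmn2, an actin nucleator (r = 0.91, rho = 0.86), and Grik5, a kainate receptor subunit (r = 0.90, rho = 0.90). For Rps15a they were Spon1, a secreted adhesion protein (r = 0.88, rho = 0.88), Bai2, an adhesion receptor now named Adgrb2 (r = 0.87, rho = 0.89), and Nvl, a nuclear ATPase of ribosome assembly (r = 0.86, rho = 0.88). Within genotypes r was 0.88 to 0.94 for the Egln3 neighbours, 0.94 to 0.97 for those of Rasl10a, 0.80 to 0.84 for those of Fam163b and 0.66 to 0.81 for those of Rps15a. Without the 2 arrays farthest from each member's median, r over these neighbours was 0.75 to 0.93.

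Markers of cortical excitatory neurons moved with Egln3, Rasl10a and Fam163b. Of 20 such markers 11 had a row in the selected table, and all 11 were higher in HET minus WT at an unadjusted p under 0.05, where 83.7% of the table was; none passed the adjusted threshold, which 0.00222% of all probe sets met. The median over the 11 was 0.89, against 0.31 over the whole selected table, and 0.77 against 0.20 with array medians subtracted. In HET minus HOM 8 of the 11 were higher at an unadjusted p under 0.05, against 14.5% of the table, with a median of 0.89 against 0.14, and none passed the adjusted threshold, which 0.00665% of all probe sets met. Each gene was counted by its brightest listed probe set. Without HET 1, HET 3 and HET 5, all 11 stayed above 0 in HET minus WT, with a median of 0.54. At an unadjusted p under 0.05 by limma 4 of the 11 were then higher, against 579 of all 45101 probe sets. In HET minus HOM 8 of the 11 were then above 0, with a median of 0.53. At the same threshold 5 of the 11 were higher, against 614 of all 45101 probe sets. Slc17a7, the vesicular glutamate transporter of cortical neurons, averaged 1389 ± 515 in HET, 604 ± 402 in HOM and 539 ± 277 in WT, and Tbr1, a transcription factor of deep cortical layers, averaged 615 ± 216 in HET, 227 ± 110 in HOM and 311 ± 190 in WT (SD). Tshz2, a zinc finger gene of cortical layers, had another order, 167 ± 61.4 in HET, 219.8 ± 102 in HOM and 111 ± 50.4 in WT, with -0.33 in HET minus HOM.

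The summed intensity of the 11 markers was 12192 to 25199 in HET, 9328 to 13944 in HOM and 7886 to 13301 in WT, so the genotypes overlapped in HET 4. None of the markers was at 0 in any array, and the lowest single value was 45.8. HET 5 had the highest sum and HET 4 the lowest sum of the HET arrays. The members' intensities as deposited had the same ends, except that Fam163b 1455753_at was highest in HET 3. With array medians subtracted, the marker mean followed Egln3 (r = 0.92, rho = 0.90, and r = 0.90, rho = 0.91), Rasl10a (r = 0.89, rho = 0.92), Fam163b (r = 0.82, rho = 0.76, and r = 0.81, rho = 0.57) and, less closely, Rps15a (r = 0.44, rho = 0.59). The 11 markers are those listed in a table selected mostly for HET against WT, and the members were chosen for high HET values. These pooled r and rho therefore carry the HET excess of both choices, and nothing is read from them. Within genotypes r was 0.89 and 0.83 for Egln3, 0.83 for Rasl10a, 0.66 and 0.77 for Fam163b and 0.06 for Rps15a. Without the 2 arrays farthest from the marker median, r was 0.83 and 0.79 for Egln3, 0.77 for Rasl10a, 0.81 and 0.76 for Fam163b and 0.28 for Rps15a. The part of cortical tissue in the members' values was not tested. In bulk tissue fewer cells of a type and less RNA per cell cannot be told apart.

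**Figure D4:**
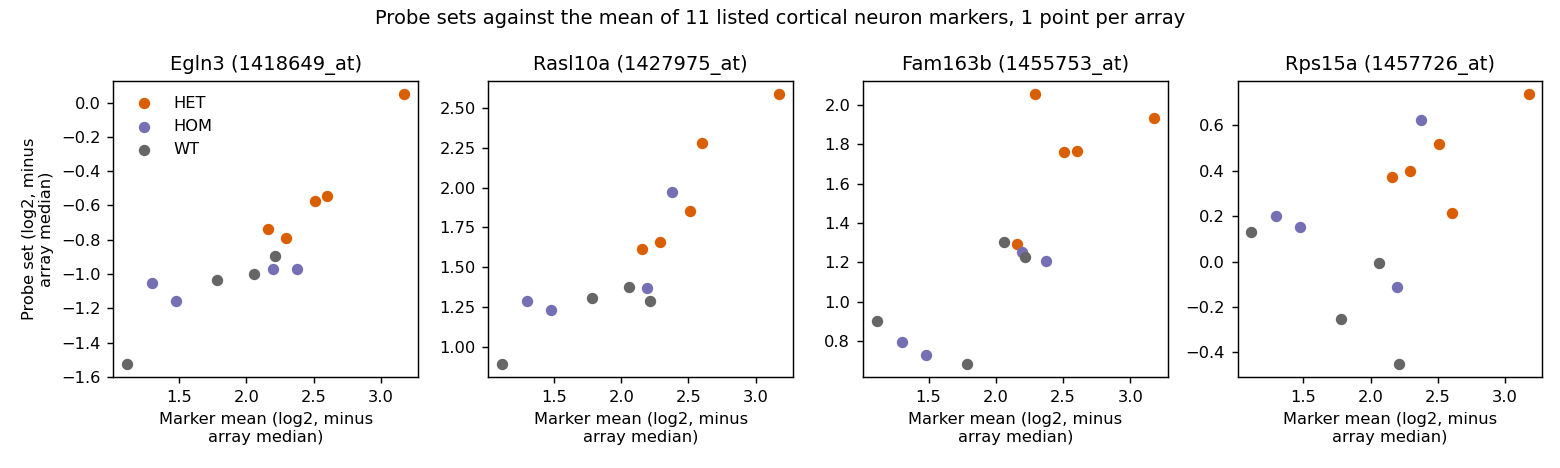
Array values of Egln3 1418649_at, Rasl10a, Fam163b 1455753_at and Rps15a against the mean of 11 listed cortical markers, both in log2 after array medians were subtracted, 1 point per array coloured HET, HOM or WT. Egln3 (r = 0.90) and Rasl10a (r = 0.89) are higher where the marker mean is higher, and Rps15a scatters (r = 0.44). The pooled r values carry the HET excess for which the members and most of the selected table were picked.

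Other cell types had few rows in the selected table. Among striatal projection neuron markers 1 of 22 was listed, Arpp21, so the labelled tissue could not be checked against Drd1, Drd2 or Ppp1r1b; Arpp21 averaged 2818 ± 351 in HET, 2369 ± 247 in HOM and 2118 ± 211 in WT (SD). Of 11 interneuron markers 5 were listed, with a median of 0.38 in HET minus WT and 0.39 in HET minus HOM, and summed intensities of 9355 to 14515 in HET, 6954 to 9495 in HOM and 6633 to 9089 in WT. No marker of oligodendrocytes, their precursors or choroid plexus was listed, and 2 of 10 astrocyte markers, 1 of 12 microglial markers, 1 of 13 vascular markers, 1 of 6 meningeal markers and 1 of 6 red cell markers were. The 3′ to 5′ signal ratio, a measure of RNA integrity and labelling, was 0.916 to 0.958 in HET, 0.884 to 0.917 in HOM and 0.888 to 0.932 in WT for Gapdh and 1.38 to 1.504 in HET, 1.32 to 1.42 in HOM and 1.35 to 1.42 in WT for actin. Its part in the members' values was not tested.

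The oxygen-sensing pathway around Egln3 had few named rows. Of the 10 HIF hydroxylases and subunits, Hif1an and Arnt2 were listed beside Egln3. Hif1an, the asparagine hydroxylase that restrains HIF, averaged 753 ± 106 in HET, 672 ± 78.8 in HOM and 601 ± 27.2 in WT, and Arnt2, a neuronal partner subunit of HIF, averaged 2139 ± 169 in HET, 1984 ± 208 in HOM and 1657 ± 131 in WT (SD). In HET minus WT they differed by 0.31 ± 0.12 and 0.36 ± 0.11 (adjusted p = 0.402 and 0.311 by limma) and in HET minus HOM by 0.16 ± 0.12 and 0.11 ± 0.11. These values were close to the selected table's medians of 0.31 and 0.14.

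Of 34 genes known as HIF targets 8 were listed, and 6 of the 8 were higher in HET minus WT at an unadjusted p under 0.05, against 83.7% of the selected table, with a median of 0.29. In HET minus HOM 1 was higher and 1 was lower at that threshold, against 14.5% higher and 1.88% lower in the selected table, with a median of 0.17. Pdk1, which diverts pyruvate from the mitochondrion, averaged 679 ± 142 in HET, 543.7 ± 43.7 in HOM and 472 ± 43.1 in WT by its brightest probe set. By that probe set it was the one higher in HET minus HOM (0.29 ± 0.14, unadjusted p = 0.0443 by limma). The other listed Pdk1 probe sets gave 0.11 ± 0.13, 0.13 ± 0.13 and 0.22 ± 0.12 there, none under an unadjusted p of 0.05. Car12, a carbonic anhydrase, averaged 904 ± 262 in HET, 1324 ± 278 in HOM and 789 ± 163 in WT and was the one lower (-0.57 ± 0.19, unadjusted p = 0.00566), so its peak was in HOM. Hk1, the main brain hexokinase, differed by 0.42 ± 0.13 in HET minus WT. None of the 8 listed targets passed the adjusted threshold in any comparison. Without HET 1, HET 3 and HET 5, all 8 were above 0 in HET minus WT, with a median of 0.10. At an unadjusted p under 0.05 by limma 0 of the 8 were then higher, against 579 of all 45101 probe sets.

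Among 36 Ras subfamily and Ras-like GTPase genes, 8 were listed beside Rasl10a, and all 8 were higher in HET minus WT at an unadjusted p under 0.05, against 83.7% of the selected table, with a median of 0.35 against the table's 0.31, and none passed the adjusted threshold. Rasl11b, a relative of Rasl10a, averaged 1340 ± 293 in HET, 873 ± 40.0 in HOM and 967 ± 154 in WT (SD), and it was the only one of the 8 higher in HET minus HOM at an unadjusted p under 0.05, against 14.5% of the selected table (0.59 ± 0.14, adjusted p = 0.621). Rasl11b thus had about the same difference from HOM as Rasl10a and a smaller one from WT, 0.45 ± 0.14. Rras2, a growth-promoting Ras relative, differed by 0.52 ± 0.14 in HET minus WT and 0.25 ± 0.14 in HET minus HOM. Without HET 1, HET 3 and HET 5, the median of the 8 in HET minus WT was 0.18, with all 8 above 0. Of these, 0 were higher at an unadjusted p under 0.05 by limma, against 579 of all 45101 probe sets.

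For Fam163b, its relative Fam163a had no row in the selected table. Of 79 cytosolic ribosomal protein genes, Rpl22 and Rps3 were listed beside Rps15a. Rpl22, a protein of the large subunit, averaged 1543 ± 90.7 in HET, 1355 ± 151 in HOM and 1275 ± 18.5 in WT (SD), a difference of 0.27 ± 0.10 in HET minus WT and 0.19 ± 0.10 in HET minus HOM. Rps3 differed by 0.28 ± 0.13 in HET minus WT. The remaining ribosomal genes were not analysed here because their probe sets carry no name in the tables used.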

How the data were processed

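Striatal RNA of 13 samples was hybridised to Affymetrix arrays, 1 array per sample. The submitters' processing notes name PLIER, and the deposited intensities (45101 probe sets, linear scale) are its summaries as far as the notes say; genome build and version are not stated there. The authors' deposited table adds fold changes with raw and adjusted p-values for 4423 selected probe sets, of which 3581 carry 1 gene symbol, 49 several and 793 none; genes could be named only through that table.

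Genotypes came from the sample records. Differences were fitted on log2(intensity + 16) with limma 3.58.1 in R 4.3.3 (lmFit over all 13 arrays, contrasts, eBayes with intensity trend), and p-values were adjusted by Benjamini-Hochberg over all 45101 probe sets, with a threshold of 0.05. The fit was tested on simulated data with independent noise for each probe set, so brightness shared across an array was not covered. A repeat subtracted each array's median log2 value.

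The members and gene lists were chosen with earlier results of these data known. From each list the text names the 2 genes of smallest p in HET minus WT and in HET minus HOM, and the 3 genes of highest r for each member; other marker genes it names were chosen after their values were seen. Another 26 settings were tried. P-values measure the spread between separate samples.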

Additional observations from a re-analysis of the deposited data

How the results depend on the processing

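The direction of HET minus WT and HET minus HOM held for both Egln3 probe sets, Rasl10a, Fam163b 1455753_at and Rps15a under each setting tried that could be computed, with HET minus WT between 0.69 and 1.28 for Egln3 1418648_at, 0.47 and 0.83 for Egln3 1418649_at, 0.55 and 1.02 for Rasl10a, 0.52 and 0.99 for Fam163b 1455753_at and 0.47 and 0.81 for Rps15a. HET minus HOM ran between 0.33 and 0.91, 0.32 and 0.62, 0.21 and 0.68, 0.47 and 0.93, and 0.05 and 0.31 for the same probe sets. The ranges leave out the selected table read by its headings, which exchanges HOM and WT by construction and kept both differences above 0 for these probe sets. The genes were picked for high HET values in these same arrays, so the steady direction is a description and not a test. Fam163b 1457437_at came to -0.0015 in HET minus WT and -0.0180 in HET minus HOM with hybridization controls subtracted. Both Egln3 probe sets and Fam163b 1457437_at are too dim to enter the fit of the brighter probe sets (those at or above the median of all), so that fit gives them no value.

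HOM minus WT turned negative in several settings. With array weights it was -0.0235 for Egln3 1418648_at, -0.16 for Fam163b 1455753_at and -0.0909 for Fam163b 1457437_at. With medians subtracted it was -0.0349 and -0.0490, and with quantile normalization -0.0593 and -0.0415, for the same Fam163b probe sets. Leaving out 1 array gave -0.0755 to 0.15 and -0.0150 to 0.10 for them. Read by the headings of the selected table, which exchange the genotypes, it was -0.36 and -0.16 for Egln3, -0.34 for Rasl10a, -0.0570 and -0.0393 for Fam163b and -0.46 for Rps15a. The same exchange gave Car12 -0.57 in HET minus WT and 0.16 in HET minus HOM; Car12 HET minus WT was also -0.0284 with quantile normalization and -0.0726 with hybridization controls subtracted. With those controls subtracted, HET minus HOM was -0.0523 for Hif1an and -0.0192 for Rpl22, and without HET 1, HET 3 and HET 5 it was -0.0123 for Hif1an. Except where the settings exchange the genotypes, the cause was not tested.

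Counts of probe sets past the adjusted threshold were small and moved with the setting. In HET minus WT 1 passed, against 4 with array weights, 3 and 681 in the selected table as headed and with headings exchanged, 0 without HET 1, HET 3 and HET 5 (limma, 691 at an unadjusted p under 0.05), and 1 to 213 on leaving out 1 array, the 213 without HET 4. In HET minus HOM 3 passed, against 12 with those groups alone, 5698 with array weights, 681 in the selected table as headed, 6 with hybridization controls subtracted, and 0 to 7 on leaving out 1 array. The 0 came without HOM 4 (limma, 1881 at an unadjusted p under 0.05) and the 7 without HOM 1. In HOM minus WT 4 passed, against 2 among the brighter probe sets, 18 with those groups alone, 8390 with array weights, 11 without HET 1, HET 3 and HET 5, and 3 to 12 on leaving out 1 array, the 12 without HOM 4. Array weights ran between 0.209 for HOM 1 and 12.1 for HOM 3, so that 1 array weighed most in HOM; with them Rps15a in HOM minus WT had an adjusted p of 0.00865, against 0.909 in the main setting. P-values within the selected table are adjusted over probe sets already picked for HET against WT. Same-numbered arrays correlated by -0.45 to 0.19 after group means were removed. Arrays of different number were not set beside them, so these values cannot decide whether replicate numbers pair the arrays. With the replicate number as a block and without HET 5 the counts were 6, 12 and 17 for HET minus WT, HET minus HOM and HOM minus WT.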

Other observations

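Of 9 markers of regions beside the striatum 5 were listed, with a median of 0.61 in HOM minus WT, against 0.19 over the selected table, which was itself partly picked on this comparison. Wfs1, an endoplasmic reticulum protein abundant in parts of hippocampus and amygdala, averaged 2584 ± 895 in HET, 3626 ± 1165 in HOM and 2096 ± 569 in WT (SD). Crh, the stress peptide, averaged 282 ± 149 in HET, 284 ± 140 in HOM and 115 ± 51.7 in WT. In HET minus HOM the 5 listed region markers had a median of -0.43, and only Trpc4 was above 0 (0.17 ± 0.15 SE). Trpc4, a cation channel, averaged 100.1 ± 20.4 in HET, 87.3 ± 18.2 in HOM and 76.0 ± 18.6 in WT, the order of Egln3 and Rasl10a. Vip, an interneuron peptide, averaged 590 ± 371 in HET, 302 ± 154 in HOM and 214 ± 126 in WT, also in that order, with an unadjusted p of 0.0181 in HET minus HOM. These genes were chosen after their values were seen.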
